A study of Arabidopsis thaliana with 60 samples.

Results

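HEC1 (AT5G67060), HEC2 (AT3G50330), HEC3 (AT5G09750), SPT (AT4G36930), ALC (AT5G67110) and IND (AT4G00120) are 6 of the 27444 protein-coding genes on the nuclear chromosomes of Arabidopsis thaliana. They were taken by name as the basic helix-loop-helix (bHLH) genes of the gynoecium, the female organ of the flower, and all 6 were found in the gene table by their locus tags. Each was described by how much of its gene body, and of the body with 2 kb on either side, lay under peaks of a histone mark in all 30 peak lists.

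The proteins bind DNA as pairs, and several of them pair with one another. SPT (SPATULA) is needed for the tissues that grow from the carpel margins, including stigma, style, septum and transmitting tract, and it also restrains germination and cotyledon growth in seedlings. The HECATE proteins HEC1, HEC2 and HEC3 act redundantly in stigma and transmitting tract and can pair with SPT. ALC (ALCATRAZ), the closest relative of SPT, acts in the separation layer of the fruit, and IND (INDEHISCENT) specifies the valve margin along which the fruit opens and acts with SPT on auxin transport. Trimethylation of histone H3 lysine K27 (H3K27me3) is set by Polycomb repressive complex PRC2 and marks genes held silent, whereas K4 trimethylation marks the start regions of transcribed genes.

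The data were ChIP-seq peak lists from 8-day-old whole seedlings, which carry no flowers. The single-end series held 2 libraries per genotype and mark, with 1 list each, for Ler wild type, the loss-of-function alleles ult1-2 and ult1-3 and the overexpressor 35S::ULT1 in Ler background, and for Col-0 wild type and ref6-3. ULT1 is a SAND-domain trithorax-group protein, expressed in 35S::ULT1 from a viral promoter that is active in most tissues, and REF6 is a demethylase of H3K27me3. The paired-end series held H3K27me3 alone, with 1 list per genotype, for Col-0, ult1-3, swn-7, clf-28, ult1-3 swn-7 and ult1-3 clf-28, all in Col-0 background. CLF and SWN are the methyltransferase subunits of PRC2. The antibody tag writes histone H4 for the K4 libraries while the titles write K4 alone, so that mark is called K4 here.

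Single-end lists held 6382 to 9945 H3K27me3 peaks with 8.79 M to 22.4 M reads inside them, and 15527 to 16510 K4 peaks with 16.5 M to 22.5 M reads. The 35S::ULT1 libraries had the most H3K27me3 peaks (9578 and 9945, against 7753 and 7720 in Ler). The paired-end lists held 3703 to 5987 peaks, and their depth is unknown. Over ULT1 itself, both Ler libraries had 49.7% of the body under H3K27me3, both ult1-2 libraries 0%, the ult1-3 libraries 42.6% and 49.7%, and both 35S::ULT1 libraries 85.2%. In the paired-end lists cover of ULT1 was 74.9% for Col-0, 56.8% for swn-7 and 71.0% for clf-28, and among the lists with the ult1-3 allele it was 0% for ult1-3, 35.5% for ult1-3 swn-7 and 71.0% for ult1-3 clf-28. K4 marked 4 of 4 listed photosynthesis genes in every single-end genotype. H3K27me3 marked 4 of 4 listed seed storage genes in Ler, 35S::ULT1 and the paired-end Col-0 and ult1-3 swn-7 lists and 3 of 4 in the others, and it marked 1 of the 4 photosynthesis genes in 5 of the 6 paired-end lists. Marks were measured over whole seedlings, so that fewer cells carrying a mark and less of it per cell cannot be told apart. For the same reason, both marks over one stretch need not lie in the same cells. The labels do not say whether the 2 libraries of a genotype came from separate plants, so p-values measure only the spread between libraries, which may be technical. Where that spread was small, the p-values of cover came instead from a set lower limit on a gene's variance. That limit was the variance of a shift by 1 window of 200 bp, the step of the peak lists.

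The 6 genes fell into different chromatin states in wild-type seedlings. HEC2, HEC3 and IND lay wholly under H3K27me3 and had no K4 peak in the body, SPT and ALC had K4 and no H3K27me3 in the body, and HEC1 had both marks. A gene with at least 50% of its body under peaks was called marked by H3K27me3. In both Ler libraries 4 of the 6 genes were marked by H3K27me3, against 25.4% of all protein-coding genes. By the K4 rule (at least 500 bp or 50% of the body, whichever is less), HEC1 and SPT were marked in both Ler libraries, against 60.5% of all genes, and ALC in 1 of the 2. In both Col-0 libraries 3 genes were marked by H3K27me3 (background 23.0%), since HEC1 passed 50% in only 1 of them, and 3 by K4 (background 62.0%). For H3K27me3 the counts in the other single-end genotypes were 3 in ult1-2 and 4 in each of ult1-3, 35S::ULT1 and ref6-3, against 24.1%, 24.1%, 30.2% and 28.1% of all genes. For K4 the counts were 3 for ult1-2, 2 for ult1-3, and 3 each for 35S::ULT1 and ref6-3, against 60.3%, 59.7%, 61.2% and 62.7%. In the paired-end lists HEC2, HEC3 and IND were marked in each of the 6 genotypes, and HEC1 in clf-28 as well, where 20.7% of all genes were marked in Col-0, 20.2% in ult1-3, 21.4% in swn-7, 18.7% in clf-28, 20.4% in ult1-3 swn-7 and 11.1% in ult1-3 clf-28.

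**Figure D1:**
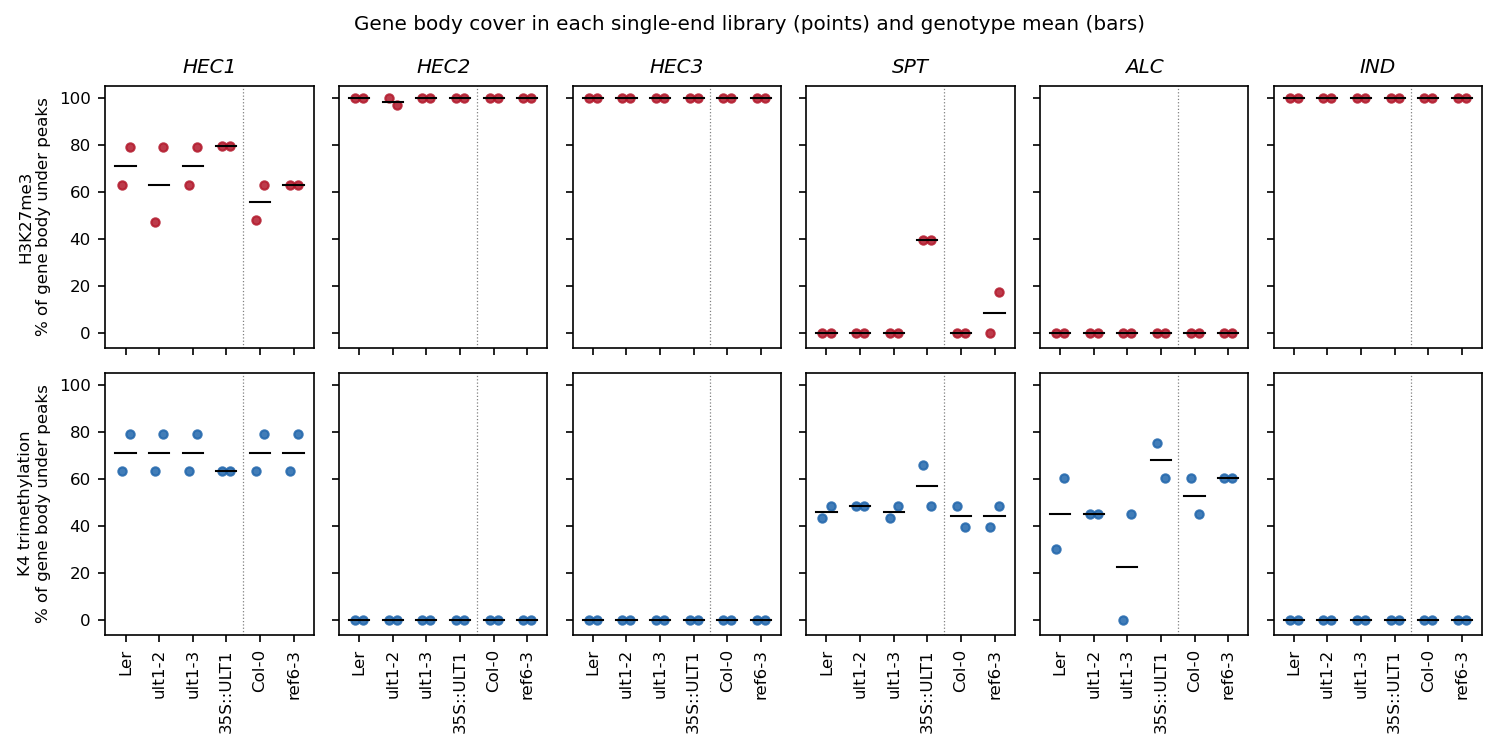
Percent of the gene body under H3K27me3 peaks (top) and K4 peaks (bottom) in each single-end library; points are libraries, bars are means of 2, and the dotted line parts the Ler family from Col-0 and ref6-3. HEC2, HEC3 and IND sit at 100% H3K27me3 with 1 library at 96.8%, ALC sits at 0%, and SPT leaves 0% in both 35S::ULT1 libraries and in 1 ref6-3 library.

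HEC1, the HECATE gene that carried both marks, had a short H3K27me3 peak in all 12 single-end lists. In Ler library 1 the peak ran from 26766001 to 26766800 on chromosome 5 (TAIR10), and in library 3 it ran from 26766001 to 26767000. The share of the HEC1 body under H3K27me3 was 63.2% and 79.0% for Ler, 47.4% and 79.0% for ult1-2, 63.2% and 79.0% for ult1-3, and 79.7% for both 35S::ULT1 libraries. Cover was 48.1% and 63.2% in Col-0 and 63.2% in both ref6-3 libraries. The values of every mutant overlapped those of its wild type or differed from them by less than 1 window of 200 bp, the step of the peak lists. The fitted difference in 35S::ULT1 was 8.61 percentage points (SE 11.6, limma with Benjamini-Hochberg adjustment, adjusted p = 1.0).

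Read density, the reads assigned to the body per kb and per M reads in peaks, separated the HEC1 libraries more than cover did. For H3K27me3 it was 25.6 and 30.0 in Ler and 42.0 and 46.6 in 35S::ULT1. The ult1-2 libraries had 16.3 and 29.3, the ult1-3 libraries 22.4 and 27, the Col-0 libraries 15.7 and 24.0, and the ref6-3 libraries 22.0 and 21.5. Both 35S::ULT1 libraries thus lay above the other 10, while in the order of means after it (Ler, ult1-3, ult1-2, ref6-3, Col-0) every pair of neighbours overlapped. The 35S::ULT1 difference from Ler was 0.65 on the log2 scale (density with a pseudocount of 1; SE 0.288) and did not pass after adjustment over all genes (limma, adjusted p = 0.151). The peak in 35S::ULT1 held 1259 and 1248 reads over 1200 bp, against 649 and 549 reads over 800 and 1000 bp in Ler.

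K4 peaks lay over the same stretch of HEC1 in all 12 K4 lists, covering 63.2% or 79.0% of the body. The part of the body under H3K27me3 in both libraries and also under K4 in both was 600 bp long for Ler, ult1-2, ult1-3 and ref6-3, 800 bp for 35S::ULT1 and 400 bp for Col-0. K4 read density over HEC1 ranged from 25.7 to 40.3 in all libraries, and no comparison of its K4 cover passed (adjusted p = 1.0 in each, limma). A second K4 peak in the flank, from 26767801 to 26768600 or 26768800, lay over the neighbouring gene RALFL34 (AT5G67070), which encodes a signalling peptide, and covered 58.9% to 73.6% of it.

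**Figure D2:**
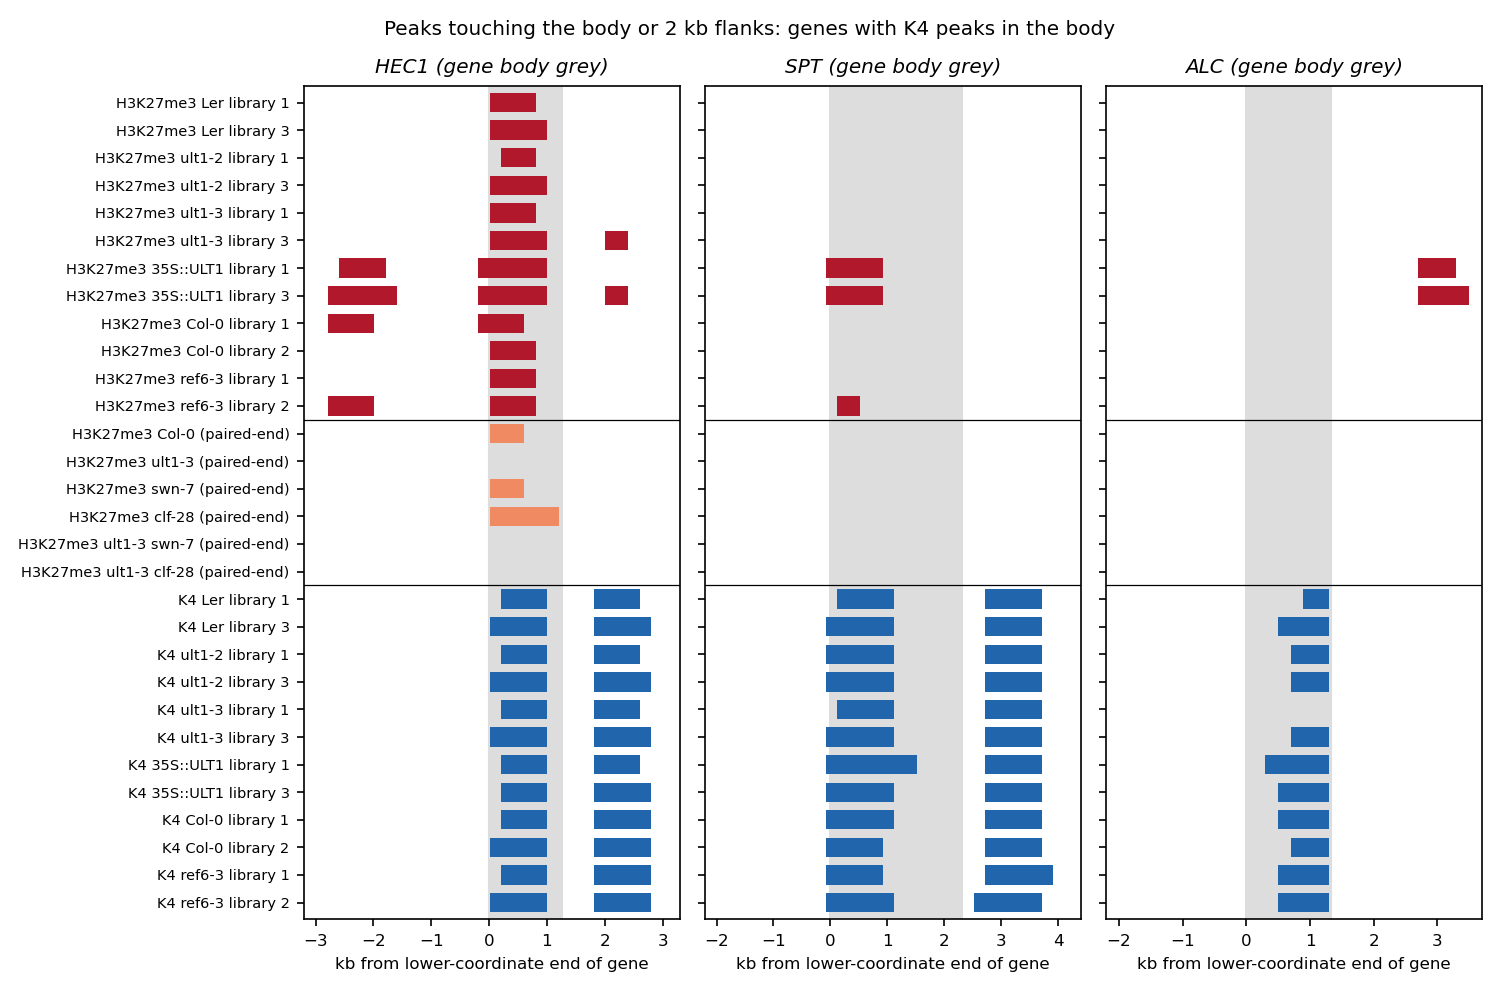
Peaks that touch HEC1, SPT or ALC or their 2 kb flanks in each list, by distance in kb from the lower-coordinate end of the gene (grey, gene body); red is single-end H3K27me3, orange paired-end H3K27me3 and blue K4. On HEC1 both marks lie over the same segment, on SPT the 35S::ULT1 H3K27me3 peak starts with the K4 peak, and on ALC the H3K27me3 peaks of 35S::ULT1 lie outside the gene.

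HEC1 was the member whose peak came and went in the paired-end lists. Its body was under H3K27me3 for 47.4% in Col-0, 47.4% in swn-7 and 94.8% in clf-28, and no peak touched it in ult1-3, ult1-3 swn-7 or ult1-3 clf-28. The peak was 600 bp wide in Col-0 and swn-7 and 1200 bp wide in clf-28. All 3 lists with the ult1-3 allele thus lacked the peak, and the other 3 had it, although the lists with the allele differed in their H3K27me3 over ULT1 itself (0%, 35.5% and 71.0%). The lists split the same way by size. Those of ult1-3, ult1-3 swn-7 and ult1-3 clf-28 held 5133, 5123 and 3703 peaks. Those of Col-0, swn-7 and clf-28 held 5357, 5444 and 5987, and the part of list size was not tested. With 1 list per genotype the differences over HEC1 have no replicate check and no test. In Col-0 the peak stood at percentile 2.34 of its list by the authors' value per peak (300, of unstated unit), in swn-7 at percentile 2.35 (319) and in clf-28 at percentile 29.8 (478). By the 50% rule HEC1 was gained in clf-28, as were 4.02% of all genes, and with the rule set at 20% it was lost in ult1-3, ult1-3 swn-7 and ult1-3 clf-28, as were 3.31%, 2.83% and 11.8% of all genes. By the 50% rule no other member was lost or gained in these lists. In all, 2.85% of genes were lost and 2.36% gained in ult1-3, 1.69% and 2.35% in swn-7, 6.06% lost in clf-28, 2.38% and 2.13% in ult1-3 swn-7, and 10.5% and 0.944% in ult1-3 clf-28. These paired-end comparisons share the Col-0 list. In the single-end series, both ult1-3 libraries, in Ler background, kept the HEC1 peak with 458 and 765 reads.

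HEC2, the second HECATE gene, was covered by H3K27me3 over 100% of its body in 11 of the 12 single-end lists, the exception being ult1-2 library 3 with 96.8%. Cover of a body at 100% cannot rise, so changes there could appear only at the peak's edges or in its reads. The HEC2 peak was 3.8 and 4.2 kb wide for Ler, 3.6 and 3.4 kb for ult1-2, 3.8 kb for both ult1-3 libraries, and 8.6 and 9.4 kb for 35S::ULT1. It was 5.4 and 3.8 kb in Col-0 and 3.8 kb in both ref6-3 libraries. Both 35S::ULT1 peaks were wider than any other single-end peak over HEC2, and both ended at 18664800 on chromosome 3, whereas the Ler peaks ended at 18660600. The exact permutation test of 2 libraries against 2 cannot give a two-sided p below 0.333, so width was not tested.

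Over the HEC2 body with its 2 kb flanks, cover was 66.0% and 73.3% in Ler and 77.0% and 91.8% in 35S::ULT1. The groups did not overlap, and the difference of 14.8 points (SE 5.18) did not pass (limma, adjusted p = 0.1). H3K27me3 read density assigned to the HEC2 body was 42.6 and 40.3 in Ler and 33.6 and 33.5 in 35S::ULT1. The log2 difference was -0.30 (SE 0.123, limma, adjusted p = 0.126). Reads were spread evenly over each peak, so these values are means of the whole peak, which was wider in 35S::ULT1. A change over the body itself cannot be read from them. No K4 peak touched HEC2 or its flanks in any list.

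In the paired-end lists HEC2 was covered over 96.8% of the body in ult1-3 and over 100% in the other 5. Its peak was 3.8 kb wide in Col-0 and in clf-28, 5.6 kb in swn-7 and in ult1-3 swn-7, 3.0 kb in ult1-3 and 2.8 kb in ult1-3 clf-28. In ult1-3 clf-28 it lay from 18655601 to 18658400 and left 1.15% of the higher-coordinate flank covered, against 81.2% in Col-0, ult1-3 and clf-28 and 100% in swn-7 and ult1-3 swn-7. The swn-7 and ult1-3 swn-7 peaks had the same edges, and ult1-3 clf-28 had the narrowest, with 1 list each and no test.

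HEC3, the third HECATE gene, had the highest H3K27me3 read density of the 6 in every library. Its body was covered over 100% in all 12 single-end and all 6 paired-end lists, under a peak of 6.0 or 6.2 kb in the single-end lists that began at 3024801 on chromosome 5 in each of them. The HEC3 densities were 70.1 and 75.5 for Ler, 78.3 and 74.9 for ult1-2, 82.3 and 67.7 for ult1-3, and 60.6 and 58.3 for 35S::ULT1. Col-0 had 68.7 and 80, and ref6-3 had 66.3 and 62.1. The 35S::ULT1 values were the lowest, and their log2 difference from Ler of -0.29 (SE 0.108) did not pass (limma, adjusted p = 0.0962). In that fit 10.3% of tested genes passed as lower, and the densities of HEC2 and IND also lay below those of Ler. The K4 peak nearest to HEC3, 800 bp wide and ending at 3024800 in all 12 K4 lists, lay over 26.9% of HAM2 (AT5G09740), which encodes a histone acetyltransferase, and met the edge of the H3K27me3 peak. In the paired-end clf-28 list the H3K27me3 peak began 400 bp lower, at 3024401, and covered 12.8% of HAM2, whereas in ult1-3 clf-28 it began at 3025001.

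**Figure D3:**
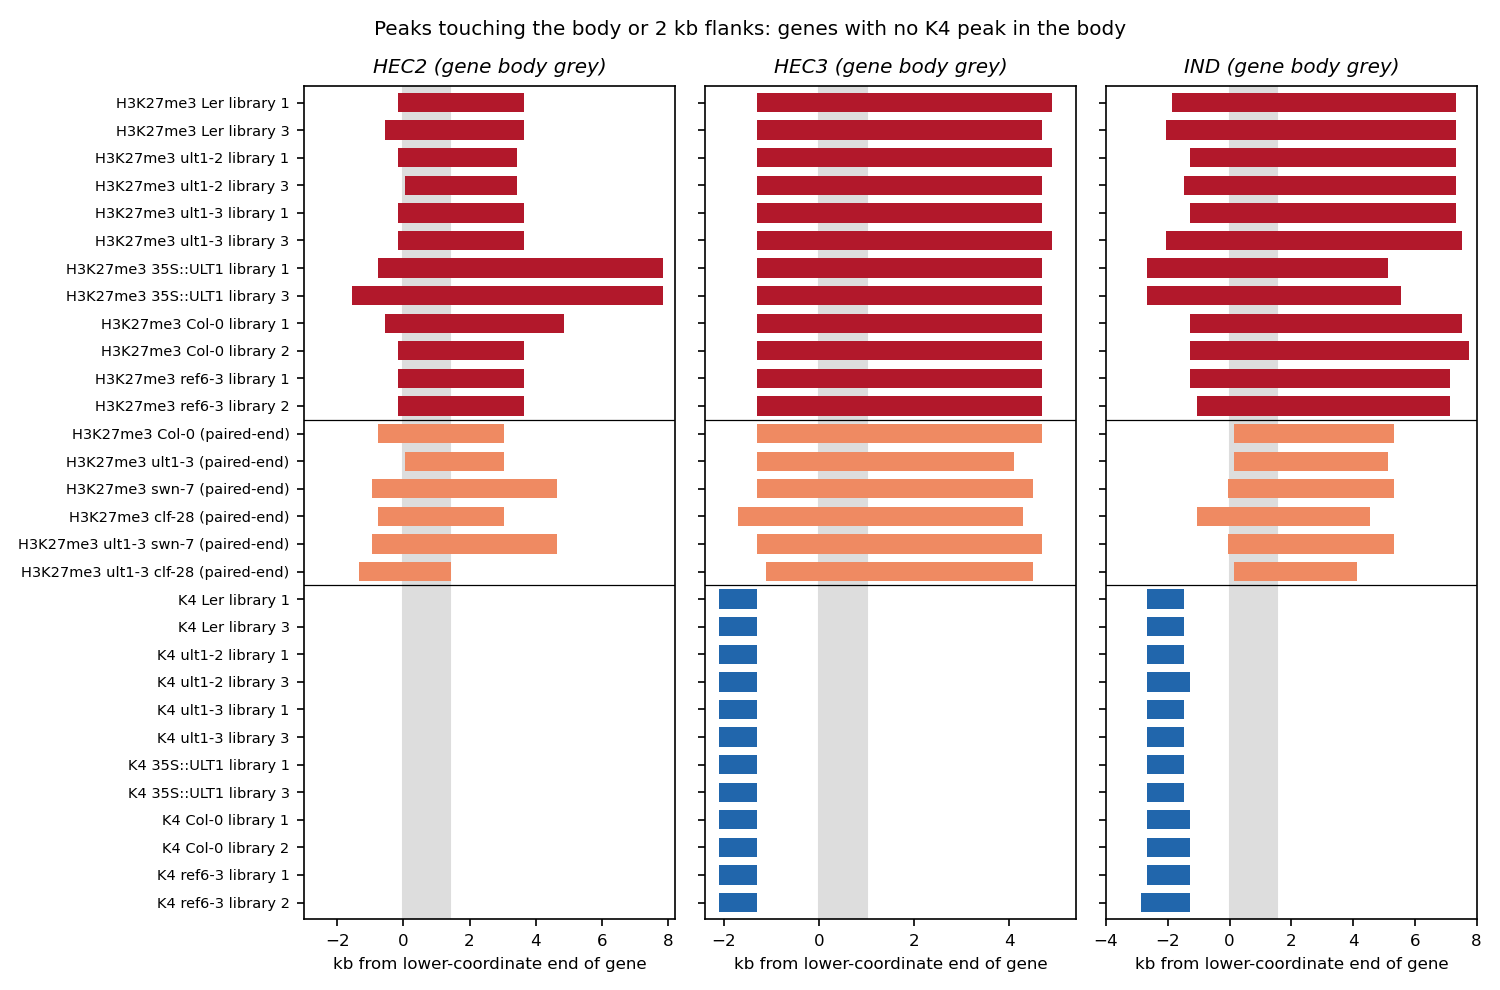
Peaks that touch HEC2, HEC3 or IND or their 2 kb flanks in each list, by distance in kb from the lower-coordinate end of the gene (grey, gene body), coloured as in the map of HEC1, SPT and ALC. HEC2 peaks reach 8.6 and 9.4 kb in 35S::ULT1, HEC3 peaks keep their lower edge in all 12 single-end lists, and no K4 peak lies in any of the 3 bodies.

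SPT, the partner of the HECATE proteins, carried K4 over one end of its body and took on H3K27me3 over the same stretch in 35S::ULT1. No H3K27me3 peak lay on the SPT body in any Ler, ult1-2, ult1-3 or Col-0 library (0% cover), while cover was 39.8% in both 35S::ULT1 libraries and 0% and 17.4% in ref6-3. Both 35S::ULT1 peaks ran from 17414001 to 17415000 on chromosome 4, with 578 and 536 reads. The groups did not overlap, and the difference of 39.8 points (SE 6.14) passed (limma, adjusted p = 0.00991), as did 12.3% of tested genes in the same direction. The SE of 6.14 is the set lower limit of 1 window of 200 bp and not a measured spread between libraries. With an equal number of peaks in every list the split of all calls moved from 1543 higher and 73 lower to 589 higher and 198 lower, and SPT passed there too (adjusted p = 0.0131). It did not pass without Ler library 3 (adjusted p = 0.0508) or without 35S::ULT1 library 3 (adjusted p = 0.0541), each time with a difference of 39.8 points.

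Among the H3K27me3 peaks of the 35S::ULT1 lists, the SPT peak was near the middle by read density and smaller than most by width and reads. By reads per kb it stood at percentiles 42.8 and 45.6, by width at percentiles 23.1 and 24.8, and by reads at percentiles 27.7 and 29.8. H3K27me3 read density over the body was 0 in both Ler libraries and 11.6 and 12 in 35S::ULT1, which was below that of HEC1, HEC2, HEC3 and IND in those libraries. The log2 difference in density was 3.68 (SE 0.604, limma, adjusted p = 0.00318), and 18.7% of tested genes passed that fit in the same direction. Density counts only reads in called peaks, so the 0 in Ler means that no peak was called there. The fit of density thus rests on the same peaks as the fit of cover, and the size of its difference depends on the pseudocount of 1.

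All 918 bp of the SPT body under H3K27me3 in both 35S::ULT1 libraries also lay under K4 in both. K4 cover of SPT was 43.4% and 48.5% for Ler, 48.5% for both ult1-2 libraries, 43.4% and 48.5% for ult1-3, and 65.9% and 48.5% for 35S::ULT1. It was 48.5% and 39.8% for Col-0 and 39.8% and 48.5% for ref6-3. The 35S::ULT1 values met those of Ler at 48.5%, and the difference of 11.2 points (SE 6.34) did not pass (limma, adjusted p = 1.0). A separate K4 peak from 17416801 to 17417800 in most lists lay over NAPRT1 (AT4G36940), which encodes an enzyme of NAD synthesis, and covered 27.8% to 33.7% of that gene.

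In ref6-3 a H3K27me3 peak of 400 bp lay on SPT in library 2 alone, from 17414201 to 17414600 with 167 reads. The mean difference from Col-0 was 8.68 points (SE 6.14) and did not pass (limma, adjusted p = 0.669), while 13.2% of tested genes rose in ref6-3. No paired-end list had a H3K27me3 peak on SPT or within 2 kb of it.

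ALC, the relative of SPT, had no H3K27me3 in its body in any of the 18 H3K27me3 lists. K4 cover of ALC was 30.2% and 60.3% for Ler, 45.2% for both ult1-2 libraries, 0% and 45.2% for ult1-3, and 75.4% and 60.3% for 35S::ULT1. Cover was 60.3% and 45.2% in Col-0 and 60.3% in both ref6-3 libraries. The peak ended at 26786400 on chromosome 5 in all 11 lists that had one, and its absence from ult1-3 library 1 was not shared by library 3. Neither the ult1-3 difference of -22.6 points nor the 35S::ULT1 difference of 22.6 points passed (SE 16.5 for each, limma, adjusted p = 1.0 for both). The annotated span of ALC lies wholly (100%) within that of ICU2 (AT5G67100), which encodes the catalytic subunit of a DNA polymerase, so K4 on ALC and on the end of ICU2 cannot be told apart. K4 read density over the ALC body was between 9.66 and 20.6 in the 11 lists that had it.

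With its flanks, ALC showed a difference in 35S::ULT1 that lay over another gene. Cover of the body and 2 kb on either side by H3K27me3 was 0% in both Ler libraries and 11.3% and 11.8% in 35S::ULT1, a difference of 11.6 points (SE 2.65, limma, adjusted p = 0.0242). As no other genotype had cover there, ALC entered the test only through 35S::ULT1. With every gene tested, whatever its cover, the adjusted p was 0.0318. SPT passed in the same fit, with 0% in both Ler libraries and 15.9% in both 35S::ULT1 libraries (difference 15.9 points, SE 2.24, adjusted p = 0.00401). For ALC and SPT alike, this SE is the set lower limit of 1 window of 200 bp and not a measured spread. Of all tested genes 20.8% rose in that fit, and the median difference was 2.66 points. The ALC peaks began at 26787801, beyond the gene, and covered 30.6% and 40.9% of AT5G67120. The ALC call was lost when any of the 4 libraries was left out (adjusted p from 0.0685 to 0.0827) and when peaks with a q-value of 1e-10 or above were dropped (5.92 points, adjusted p = 0.322). With an equal number of peaks in every list or with flanks of 1 kb, no cover was left to test.

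HEC1 with its flanks had cover of 15.2% and 19% in Ler and 26.8% and 38.2% in 35S::ULT1. The groups did not overlap, and the difference of 15.4 points (SE 5.12) did not pass (limma, adjusted p = 0.0874). Peaks in the lower flank made part of it, with 20% and 30% of that flank covered in 35S::ULT1 and 0% in both Ler libraries. The same flank was covered over 10% in Col-0 library 1 and over 0.45% in ref6-3 library 2. In the higher flank a peak from 26768001 to 26768400 lay over 29.5% of RALFL34 in 35S::ULT1 library 3 and in ult1-3 library 3. With an equal number of peaks in every list the difference was 5.7 points (adjusted p = 0.536, limma). HEC1 and ALC lie 17.8 kb apart on chromosome 5, and in 35S::ULT1 H3K27me3 peaks lay in the flanks of both. By reads per kb the lower-flank peaks of HEC1 stood at percentiles 0.371 and 1.31 of these lists. The higher-flank peak of HEC1 in library 3 stood at 34.9, and the ALC peaks at 6.11 and 6.59.

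IND, the valve margin gene, was covered by H3K27me3 over 100% of its body in all 12 single-end lists, under a peak of 7.8 to 9.6 kb. The same peak covered 71.9% to 100% of AT4G00130 in 10 of the lists. In Ler the peak ran from 39801 or 39601 to 49000 on chromosome 4, and in 35S::ULT1 from 39001 to 46800 or 47200, so that it reached further on the lower side and ended sooner on the higher side. The densities over IND were 45.2 and 51.8 for Ler, 51.5 and 55.3 for ult1-2, 49.2 and 49.8 for ult1-3, and 43.3 and 44.1 for 35S::ULT1. Col-0 had 53.1 and 57.1, and ref6-3 had 50.2 and 48.9. The 35S::ULT1 values were below both Ler values, with a log2 difference of -0.14 (SE 0.0693) that did not pass (limma, adjusted p = 0.193).

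With its flanks, IND had H3K27me3 cover of 97.5% and 100% in Ler and 86.7% and 90.3% in ult1-2, 2 groups that did not overlap. The difference of -10.3 points (SE 4.07) did not pass after adjustment (limma, adjusted p = 0.718), and in ult1-3 the values of 86.7% and 100% overlapped those of Ler. K4 peaks in the lower flank, from 39001 to 40200 in most lists, covered 66.0% to 82.4% of GAE3 (AT4G00110), which encodes an enzyme of cell wall sugar synthesis. The H3K27me3 peak over IND also covered 5.39% to 71.4% of GAE3 in 6 single-end lists. In 35S::ULT1 it began at 39001, as did the K4 peak. Paired-end H3K27me3 peaks covered IND over 91.1% of its body in Col-0, ult1-3 and ult1-3 clf-28 and over 100% in swn-7, clf-28 and ult1-3 swn-7, with peaks of 4.0 to 5.6 kb.

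**Figure D4:**
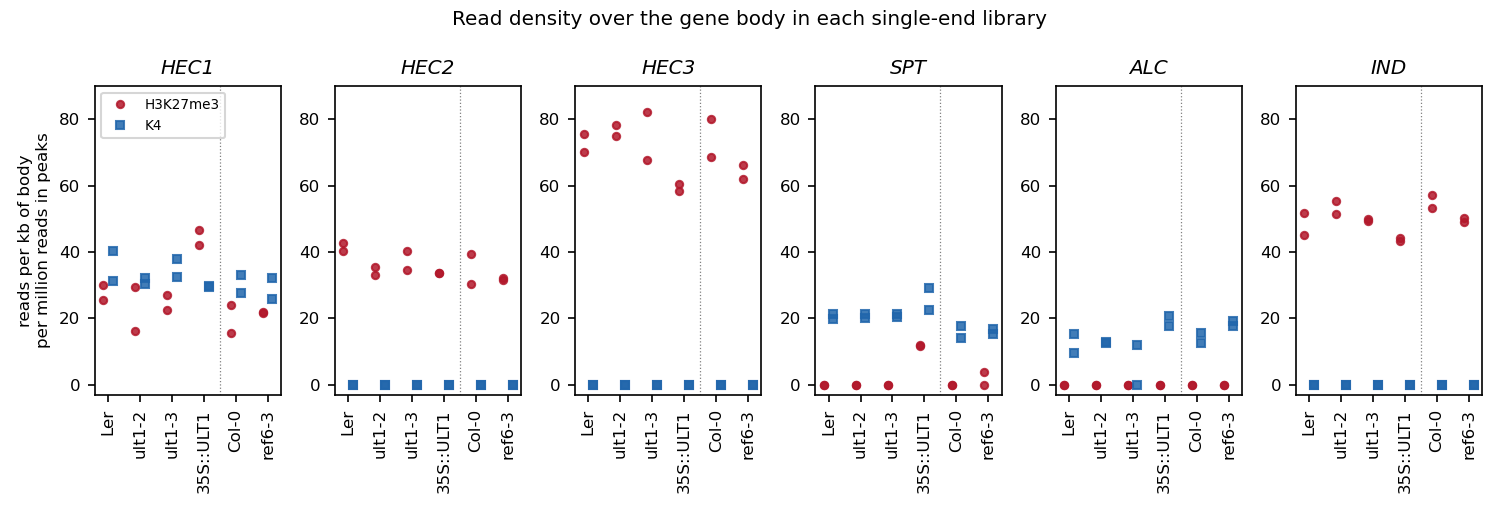
Reads per kb of gene body per M reads in peaks in each single-end library, for H3K27me3 (red circles) and K4 (blue squares); the dotted line parts the Ler family from Col-0 and ref6-3. On HEC1 the 35S::ULT1 libraries stand at 42.0 and 46.6 for H3K27me3, above the other 10, and on HEC3 they stand lowest, at 60.6 and 58.3.

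No member passed for H3K27me3 body cover in ult1-2 or ult1-3 against Ler, where 0.159% and 0.135% of tested genes rose and 0.0398% and 0.127% fell. None passed in ref6-3 against Col-0, where 13.2% of tested genes rose and 1.51% fell. ALC, with no H3K27me3 cover of its body, was not tested in these comparisons. The 3 Ler-family comparisons share the Ler libraries. For K4, HEC2, HEC3 and IND had no cover of the body and were not tested. None of SPT, ALC and HEC1 passed in any comparison of K4 body cover, and of all 19329 tested genes 0 passed. At an unadjusted p under 0.05, limma gave 106 genes for ult1-2, 209 for ult1-3, 172 for 35S::ULT1 and 212 for ref6-3, and the fit of read density called 18, 79, 12 and 91 after adjustment. By the rules for marked genes (50% of the body for H3K27me3, 500 bp or 50% for K4), no member was lost or gained for either mark in any single-end comparison. For H3K27me3 the rule gave 0.67% of all genes as lost and 0.31% as gained for ult1-2, 0.532% and 0.266% for ult1-3, 0.226% and 4.27% for 35S::ULT1, and 0.776% and 5.02% for ref6-3. For K4 it gave 0.138% and 0.128% for ult1-2, 0.277% and 0.215% for ult1-3, 0.0729% and 0.262% for 35S::ULT1, and 0.23% and 0.419% for ref6-3. With the H3K27me3 threshold at 20%, SPT was gained for H3K27me3 in 35S::ULT1, as were 5.66% of all genes.

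The genes these factors are known to act with were described from lists. Of 26 other carpel and fruit patterning factors, such as AG, SHP1 and STK, 22 were marked by H3K27me3 in both Ler libraries and 22 in both Col-0 libraries, against 25.4% and 23.0% of all genes. Body cover passed for 0 of the 22 tested in 35S::ULT1, where 12.3% of tested genes rose, and for 1 of 22 in ref6-3, where 13.2% rose. At an unadjusted p under 0.05 limma gave 0 and 1. That gene was SHP1, a MADS-domain factor that acts upstream of IND, with 79.0% and 83.5% in Col-0 and 100% in both ref6-3 libraries (adjusted p = 0.00886, limma; 0.0618 without Col-0 library 1). By read density the direction turned, with a log2 difference of -0.155 (adjusted p = 0.802, limma). Fitted on the 4 Col-0 and ref6-3 libraries alone, none of the ref6-3 calls named here passed and no gene of all tested did (0 genes in limma, with 1887 at an unadjusted p under 0.05). Of 6 valve margin and dehiscence genes, 5 were marked by H3K27me3 in both Ler libraries, against 25.4% of all genes, and none of the 5 tested passed for body cover in 35S::ULT1 or ref6-3, against the same 12.3% and 13.2%. The 5 tested were the marked ones, so they too had limited room to rise.

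Among 11 auxin genes of the gynoecium, 1 of 8 tested rose in 35S::ULT1 and 1 in ref6-3. These shares were near those of all tested genes, 12.3% and 13.2%. PID, a kinase that directs auxin transporters and is a known target of IND and SPT, had 5.82% and 30.8% of its body under H3K27me3 in Ler and 89.0% in both 35S::ULT1 libraries (difference 70.7 points, adjusted p = 0.00732, limma; 0.0523 without 35S::ULT1 library 3). PIN7, an auxin efflux carrier, had 11.6% and 17.3% in Col-0 and 82.3% and 76.5% in ref6-3 (difference 65.0 points, adjusted p = 0.00189, limma; 0.0873 for read density). In neither case did the groups overlap.

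Of 9 gibberellin and cytokinin genes, 5 were tested and 3 rose in 35S::ULT1, where 12.3% of tested genes rose. The 4 with no cover in any library were not tested, so the 3 are a description of these genes and not of the list. All 3 encode DELLA proteins, the repressors of gibberellin response. The list also holds the DELLA genes GAI and RGA, which were not among those that rose and were not both among those tested. RGL1 went from 0% in both Ler libraries to 38.4% in both 35S::ULT1 libraries (adjusted p = 0.0138, limma), and RGL2 from 0% to 43.2% (adjusted p = 0.00688). RGL3 had 26.6% in both Ler libraries and 98.0% in both 35S::ULT1 libraries (adjusted p = 0.00821). Leaving out any 1 of the 4 libraries took RGL1 (adjusted p from 0.0547 to 0.0621) and RGL3 (from 0.0523 to 0.0579) past the threshold of 0.05, and the read density of RGL3 did not pass (adjusted p = 0.195, limma). With an equal number of peaks in every list RGL1 had no cover left to test. None of the 5 tested passed in ref6-3.

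Of the PIF-group bHLH relatives of SPT and ALC, 8 were found. In both Col-0 libraries 6 were marked by K4 and 2 by H3K27me3, near the shares of all genes (62.0% and 23.0%). In ref6-3, where 13.2% of tested genes rose in H3K27me3 body cover, 2 of 6 tested rose. PIF4, a growth-promoting factor of light and temperature response, had 0% in both Col-0 libraries and 26.8% and 33.5% in ref6-3 (adjusted p = 0.00568, limma). PIF7, which acts in shade response, had 0% in Col-0 and 44.0% and 70.3% in ref6-3 (adjusted p = 0.00244; 22.0 points and 0.45 with an equal number of peaks). None of the 6 passed in 35S::ULT1, where 1 had an unadjusted p under 0.05. SPT, their relative, had 0% and 17.4% in ref6-3.

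**Figure D5:**
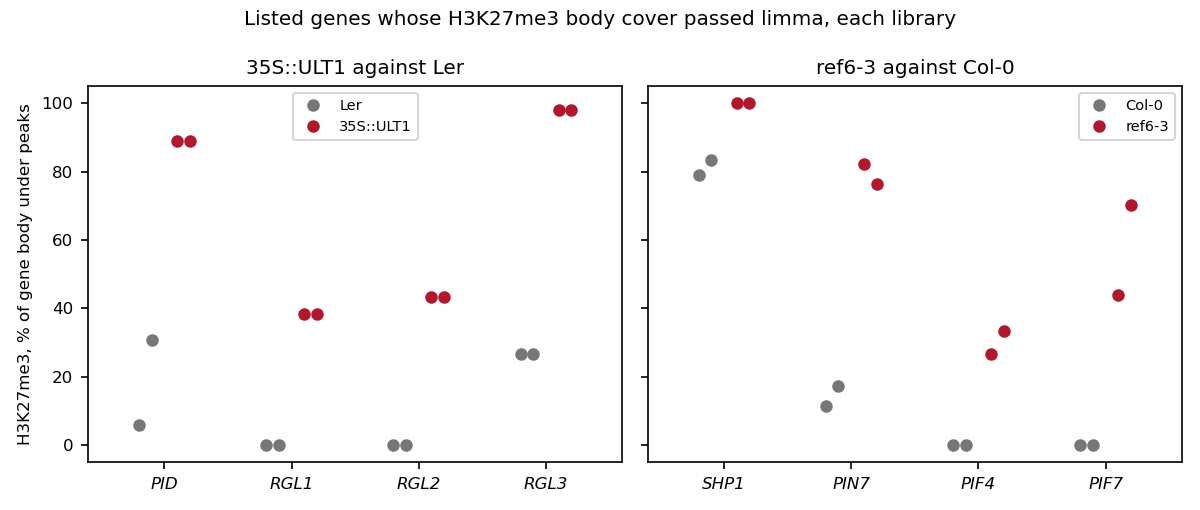
H3K27me3 body cover in each library for the listed genes that passed limma in 35S::ULT1 against Ler (left) and ref6-3 against Col-0 (right); grey points are wild-type libraries and red points mutant libraries. PID and RGL3 reach 89.0% and 98.0% in 35S::ULT1, RGL1 and RGL2 leave 0%, and on the right PIF4 and PIF7 leave 0% in both ref6-3 libraries.

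The rules for marked genes added calls for a few listed genes. AHP6, an inhibitor of cytokinin signalling, was lost for H3K27me3 in ult1-3 (72.4% in both Ler libraries, 39.6% in both mutant libraries). OLEO2, an oil body gene of seeds, was lost in ult1-2 (68.1% in both Ler libraries, 0% in both mutant libraries). By the K4 rule of 500 bp or 50%, YAB1 was lost in 35S::ULT1 (31.6% and 47.5% in Ler, 0% and 15.8% in the overexpressor), and ARF5 and PIL1 were gained in ref6-3 from 0% in both Col-0 libraries. None of these calls passed limma on body cover. Of all genes, 0.532% were lost for H3K27me3 in ult1-3 and 0.67% in ult1-2. For K4, 0.0729% were lost in 35S::ULT1 and 0.419% gained in ref6-3.

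Over bodies with 2 kb flanks, listed genes also passed for H3K27me3. In 35S::ULT1 YAB1, PID, YUC4, RGL2, RGL3 and ADPG1 rose and NGA1, NGA4, KNAT1 and STK fell, where 20.8% of tested genes rose and 2.45% fell. In ref6-3 the genes that rose included CRC, SHP1, AG, PIN7, AHP6, PIF4 and PIF7, and those that fell were TAA1, YUC1, GA3OX1, NST3, QRT2 and ADPG1, where 16.0% rose and 4.32% fell. AHP6 fell in ult1-3, where 0.474% of tested genes fell. Markers that were listed as seedling, seed or housekeeping genes passed as well, with RBCS1A, CRU3, ACT2 and GAPC1 higher in 35S::ULT1, GAPC1 and PP2AA3 higher in ref6-3 and OLEO2 lower in ref6-3.

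The genes whose body cover was most like that of each member were found by the mean absolute difference over the 30 lists, leaving out genes within 10 kb. For SPT the closest were AT4G31890, AT4G33400 and AT1G03540, which differed by 2.49, 2.5 and 2.58 points on average. ALC was closest to AT1G17830 (3.07 points), AT3G07290 (3.64) and HTA11 (3.77), and HEC1 to UGT84A4 (7.0), bHLH071 (9.23) and MYB4 (10.2). HEC1 was thus the least matched of the 6. The fully covered genes had many equals, with 958 genes within 1 point of IND, 1065 of HEC2 and 1116 of HEC3.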

How the data were processed

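Peak lists from ChIP-seq of seedlings were used as the authors deposited them. The submitters' processing notes name TAIR10, SICER 1.1 and BWA (0.6.2-r126, and for the paired-end libraries 0.7.17-r1188 as well); their settings are not stated there. The single-end lists have no header, and their deposited columns were read, from the order of a SICER summary and the values, as ChIP read count, control read count, p-value, fold over control (a ratio) and q-value. Each paired-end peak has 1 whole number, taken as a score by the authors in an unstated unit, and how the 2 libraries were combined was not stated. List names gave 2 K4 lists (Ler and ult1-2, number 3) a genotype but no labelled library, and 6 columns of values were not used.

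Gene positions came from a RefSeq table of assembly TAIR10.1, used for names and distances. Shifting the genes improved their overlap with K4 peaks in 0 of 25 windows of 5 Mb. The table has no strand, so flanks are called lower and higher by coordinate, and no promoter, protein or motif was examined. Percent cover was tested with limma 3.58.1 (R 4.3.3, trend and robust, Benjamini-Hochberg adjustment over all protein-coding genes with cover in at least 1 library, threshold 0.05), with 1 fit over the 12 libraries of a mark. A gene's variance was not allowed below that of a shift by 1 window of 200 bp. Lost or gained means marked in both wild-type libraries and no mutant library, or the reverse. Reads of a peak were spread evenly over it for the density, whose total was the reads in peaks, so that wider marking elsewhere lowers it. A body inside a peak takes the mean of the whole peak, so a wider peak can lower it too.

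Named genes were the 6 members, genes under the same or neighbouring peaks, listed genes that passed or were called by the rule, and the 3 closest in cover. Apart from the listed genes named as passing with their flanks, 1 more that passed is not reported here. The members and lists were chosen with earlier results of these data known. Alternatives left out each library, dropped the variance floor, fitted 1 family alone, added a replicate block, used stricter or equal numbers of peaks, other thresholds and flanks, all annotated genes, or read density.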

Additional observations from a re-analysis of the deposited data

How the results depend on the processing

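The number of members that passed for H3K27me3 body cover in 35S::ULT1 was 1, and 0 to 1 when a library was left out. With flanks it was 2, and 1 with q-values below 1e-10, 1 with equal numbers of peaks, 1 with flanks of 1 kb, and 1 to 3 when a library was left out, HEC1 and HEC2 passing without 35S::ULT1 library 1 (adjusted p = 0.0497 and 0.0212, limma). By the rule at 20% of the body, 1 member was gained in 35S::ULT1, 1 was lost in each of ult1-3, ult1-3 swn-7 and ult1-3 clf-28 in the paired-end lists, and 0 were gained in clf-28. Gains in clf-28 were also 0 with equal numbers of peaks and 0 with body and flanks. Leaving out a library gave 0 to 1 members lost for H3K27me3 in ult1-2, 0 to 1 gained in ref6-3, and 0 to 1 gained for K4 in ult1-2 and in 35S::ULT1.

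Of differences between groups, 6 turned sign under an alternative, and the cause was not tested. When a library was left out, HEC1 ranged over -23.7 to 7.9 points (body) and -5.7 to 1.9 points (with flanks) in ult1-2 and over -1.9 to 9.49 points (with flanks) in ult1-3. IND with flanks ranged over -12.1 to 1.23 points in ult1-3, and HEC1 K4 with flanks over -5.7 to 1.9 points in 35S::ULT1. SHP1 in ref6-3, which rose by cover, had a log2 difference of -0.155 by read density (adjusted p = 0.802, limma). Over all genes, H3K27me3 body calls in 35S::ULT1 were 1616, from 629 to 822 when a library was left out, and 3640 by read density (2351 higher, 1289 lower). In ref6-3 they were 1849, from 1516 to 1644 when a library was left out, 0 in the fit on its own 4 libraries, and 4000 by read density (2341 higher, 1659 lower). The fit of H3K27me3 body cover with no filter on cover could not be made.

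With a replicate block for H3K27me3, SPT had an adjusted p of 0.0402 (body) and 0.019 (with flanks), ALC with flanks 0.0534 and HEC1 with flanks 0.0292. The block called 1000 genes in 35S::ULT1, 3 against 25 in ult1-2 and 1 against 33 in ult1-3. Same-numbered libraries deviated together for K4 (correlations 0.442 to 0.53 in the Ler family, 0.362 for Col-0 and ref6-3) and for H3K27me3 in the pair of ult1-2 and ult1-3 (0.443), while the other H3K27me3 pairs had -0.032 to 0.0505. With 2 numbers per group this does not pair the samples. For K4 the block changed no member's call.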
